A study of Prunus sibirica with 30 samples.

Results

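Transcript levels in flowers of a frost-resistant clone of Prunus sibirica, the Siberian apricot, were compared between 30 min at -4 °C and the start of the treatment. The comparison used 6 of the 30 libraries, 3 taken at 30 min and 3 taken at 0 h, and all 143 complete genes of the deposited table. The clone is number 453, which carries the label CR and strong frost resistance in its description. Libraries of CR at 15 min, and of clone 371 at 30 min and 0 h, were set beside it. Clone 371 carries the label NC and weak frost resistance. Each group held 3 libraries, and each clone is a single genotype. The labels name the pistil at bloom as the tissue, while the protocols speak of flowers and flower buds. Whether the 3 libraries of a group are from different trees is not in the labels, so the p-values cover the spread among these samples, and this may be technical. No flowers were kept for 30 min at a milder temperature, so the effects of cold, of time and of handling cannot be told apart.

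Ribosomal proteins, which assemble with ribosomal RNA into the small (40S) and large (60S) subunits, are among the most abundant transcripts of growing plant tissue. Plants exposed to cold are known to change the synthesis of ribosome components, the levels of RNA-binding proteins that act as RNA chaperones, and, over longer times, those of protective proteins such as dehydrins and other late embryogenesis abundant (LEA) proteins. The regulators that open the cold response, such as the CBF transcription factors, are transcripts of low abundance, and none was among the genes analysed here, which averaged 594 FPKM or more over the 30 libraries. FPKM relates fragments to both gene length and library size, which is meant to make levels comparable between genes. Here, the deviations of most libraries from their common mean still went with gene length, as described below. The 143 genes held 69 ribosomal proteins (26 of the small subunit, 39 of the large subunit and 4 of its stalk) and 74 others.

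Every value of the 6 libraries rested on 4736 to 159843 reads, which puts the counting error of the lowest at 1.45%. The 143 genes took 13.2%, 14.9% and 14.8% of the library size used for scaling at 30 min, against 20.5%, 14.9% and 17.0% at 0 h. A pair of libraries stood apart. Replicate 1 at 0 h exceeded replicate 2 in 139 genes and replicate 3 in 133 genes. Replicate 1 at 30 min correlated with replicates 2 and 3 at Pearson r of 0.84 and 0.83 across genes on the log2 scale, whereas replicates 2 and 3 correlated at 0.97. The number of genes called in each comparison that uses these libraries is therefore also given without them. As markers of green tissue such as sepals, 8 photosynthesis genes summed to 10672, 11181 and 11213 FPKM at 30 min and to 16306, 10479 and 12983 FPKM at 0 h. The Olee1-like protein, of a pollen allergen family, had 667, 667 and 662 FPKM at 30 min against 923, 663 and 741 FPKM at 0 h. No marker of the pistil itself was among the genes analysed, and the part of tissue mix in the results was not tested.

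The library medians were lower after 30 min than at the start. The median over the 143 genes was 854, 913 and 903 FPKM in the 30 min libraries, against 1285, 954 and 1059 FPKM in the 0 h libraries. Over all 143 genes the groups did not overlap, but the gap between the highest 30 min library and the lowest 0 h library was narrow. Replicate 1 at 0 h was far above the rest. The mean of the medians was 890.0 ± 31.7 FPKM at 30 min and 1099 ± 169 FPKM at 0 h (SD, n = 3 each), a difference of -209 FPKM and a two-sided exact permutation test gave p = 0.1, the lowest possible with 3 against 3 libraries. Without replicate 1 at 0 h the difference was -116 FPKM. Over the 74 genes outside the ribosomal lists the library medians of the groups overlapped. Replicate 2 had 870 FPKM at 30 min and 829 FPKM at 0 h. The difference over these genes was -167 FPKM (two-sided exact permutation test, p = 0.3). In bulk tissue, fewer cells of a type and less RNA per cell cannot be told apart. Because FPKM are scaled to a library size, all abundant genes of a library can move together. On the log2 scale the shift between the groups over all 143 genes was -0.29. Changes are therefore given as log2 differences of FPKM + 1, and also with every library set to a common median, which is called the relative change.

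**Figure D1:**
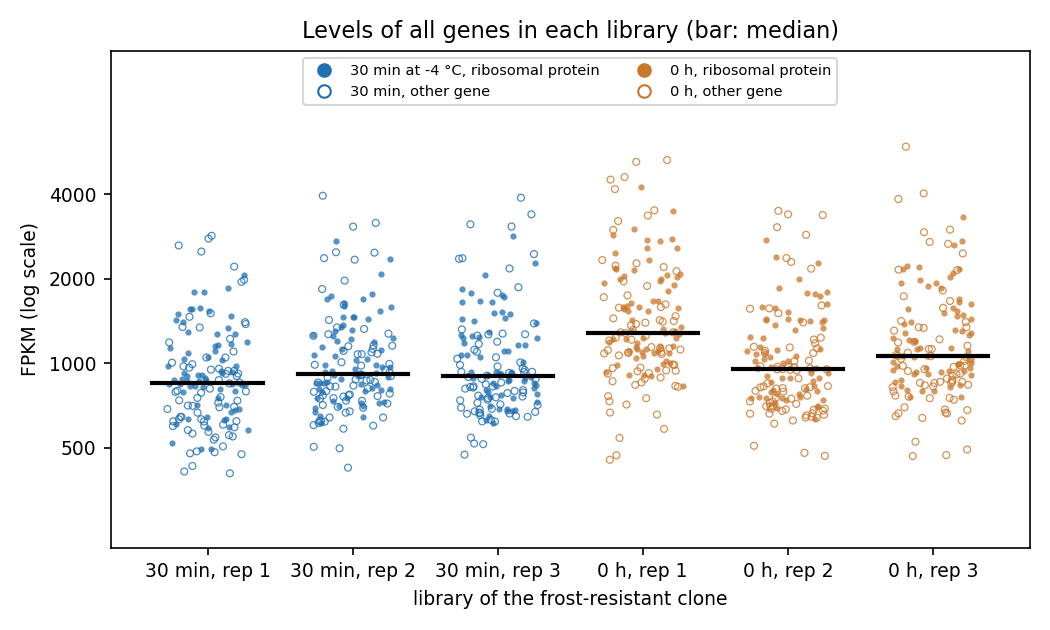
FPKM on a log scale of all 143 genes in each of the 6 libraries of the frost-resistant clone, with 30 min at -4 °C in blue and 0 h in orange. Filled points are the 69 ribosomal protein genes, open points the other 74, and black bars the library medians, which run from 854 to 913 FPKM at 30 min and from 954 to 1285 FPKM at 0 h.

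Of the 143 genes, 48 fell and 0 rose at 30 min (limma adjusted p under 0.05), so that 33.6% of all genes tested were called lower. Ribosomal proteins made up 33 of the 48, beside 69 of the 143 genes tested. Histones and chromatin proteins made up 5, of 10 tested, and genes of no list 5, of 14 tested. The rest were 1 each of a cyclophilin, a ubiquitin-like protein, a mitochondrial ATP synthase subunit, a microtubule protein and an arabinogalactan protein. The median change over all genes was -0.30, and 136 of the 143 changes were below 0. The 30 min and 0 h libraries did not overlap in 55 genes, all lower at 30 min, which is 38.5% of those tested. These counts rested on single libraries: 0 genes were called without replicate 1 at 0 h (28 at an unadjusted p under 0.05), 2 without replicate 1 at 30 min, 31 without replicate 3 at 0 h and 95 without replicate 2 at 0 h. With the spread estimated from the compared groups alone instead of all 30 libraries, 11 genes were called, and without both libraries numbered 1 the count was 0, with a median change of -0.13 and 112 changes below 0.

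Among the proteins of the small subunit 15 of 26 genes fell, beside 33.6% of all genes tested, with a median change of -0.36 against -0.30 for all genes. Since 0 genes passed without replicate 1 at 0 h, the count of this list and of every other list was then 0. Their changes ran from -0.63 to -0.10, all below 0. The lowest was a gene for S30, a small, basic protein (PaF106G0300013999.01, chromosome 3, 3868521 to 3869472). It had 520, 854 and 926 FPKM at 30 min and 1666, 965 and 944 FPKM at 0 h. The groups did not overlap, although replicate 3 at 30 min stood only just below replicate 3 at 0 h. Its change was -0.63 (SE 0.22, limma adjusted p = 0.0304). A further gene for S30 (PaF106G0700027023.01, chromosome 7, 17006792 to 17007709) had 588, 641 and 686 FPKM at 30 min, against 1095, 802 and 919 FPKM at 0 h. Here all 30 min libraries were well below all 0 h libraries, and the change was -0.55 (SE 0.14, adjusted p = 0.0131). S29, a zinc-binding protein, had 799, 1254 and 1241 FPKM at 30 min and 2068, 1444 and 1514 FPKM at 0 h from its gene on chromosome 8 (15962135 to 15963141), a change of -0.62 (SE 0.18, adjusted p = 0.0159). Its other gene, on chromosome 1, changed by -0.44 (adjusted p = 0.0239). Copies that carry the same name, as S29 and S30 do, may have shared reads, so their values are less certain than those of single genes.

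S19-1, a protein of the head of the small subunit (PaF106G0300011562.01, chromosome 3, 21051385 to 21052994), had 885, 986 and 925 FPKM at 30 min, against 1605, 1064 and 1230 FPKM at 0 h. All 30 min values were lower than all 0 h values, and the 30 min libraries lay close together at 932 ± 51.0 FPKM, compared with 1300 ± 277 FPKM at 0 h (SD, n = 3 each). The change was -0.46 (SE 0.12, adjusted p = 0.0131). At the other end was S3a, with 1036, 909 and 866 FPKM at 30 min and 1150, 867 and 1005 FPKM at 0 h. Its groups overlapped, and its change of -0.10 (SE 0.12) had an adjusted p of 0.469.

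Of the large subunit proteins 16 of 39 fell, with a median change of -0.32 and a range from -0.65 to -0.08, which is near the 33.6% called and the median of -0.30 over all genes. L39, one of the smallest proteins of the ribosome, which lines the exit tunnel of the nascent chain, had the lowest value (PaF106G0700026047.01, chromosome 7, 21724635 to 21725225). It had 685, 931 and 928 FPKM in the 30 min libraries and 1637, 1117 and 1257 FPKM in the 0 h libraries. The groups were clearly separate, with replicate 1 lowest at 30 min and highest at 0 h. It averaged 848 ± 141 FPKM at 30 min and 1337 ± 269 FPKM at 0 h (SD, n = 3 each), which is 36.4% lower, a change of -0.65 (SE 0.15, adjusted p = 0.0112). L31, which lies near the tunnel exit, had 497, 797 and 792 FPKM at 30 min, against 1273, 890 and 995 FPKM at 0 h, and changed by -0.61 (SE 0.17, adjusted p = 0.0131). L36-1 had 1085, 1693 and 1727 FPKM at 30 min and 2774, 1849 and 1979 FPKM at 0 h, and changed by -0.56 (SE 0.21, adjusted p = 0.0389). In both genes every 30 min library was below every 0 h library, and the distance came largely from the libraries numbered 1. L3, among the largest proteins of the subunit and close to its peptidyl transferase centre, was at the other end with 837, 1024 and 934 FPKM at 30 min and 1021, 923 and 998 FPKM at 0 h. Its groups overlapped, and its change was -0.08 (SE 0.13, adjusted p = 0.605).

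The stalk of the large subunit, which recruits translation factors, had 4 genes, of which P2 and P1 fell, beside 33.6% of all genes. P2 had 1568, 1645 and 1664 FPKM at 30 min, against 2870, 1777 and 2029 FPKM at 0 h (change -0.42, SE 0.17, adjusted p = 0.0495). P1 had 1148, 1199 and 1231 FPKM at 30 min and 2042, 1336 and 1403 FPKM at 0 h (change -0.39, SE 0.14, adjusted p = 0.0369). In both, the 30 min libraries lay close together and below all 0 h libraries, of which replicate 1 was far the highest. P3-1 (change -0.45, adjusted p = 0.0807) and P0 (change -0.21, adjusted p = 0.110) did not pass. The 3 translation factors did not pass either. The translationally-controlled tumor protein changed by -0.33, and the elongation factor 1-alpha genes, whose product carries aminoacyl-tRNA to the ribosome, by -0.30 on chromosome 1 and -0.12 on chromosome 6. Translation machinery-associated protein 7 (TMA7), known in yeast as a factor associated with translating ribosomes, did fall. It had 431, 641 and 710 FPKM at 30 min and 1114, 731 and 903 FPKM at 0 h, without overlap (change -0.63, SE 0.18, adjusted p = 0.0136).

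**Figure D2:**
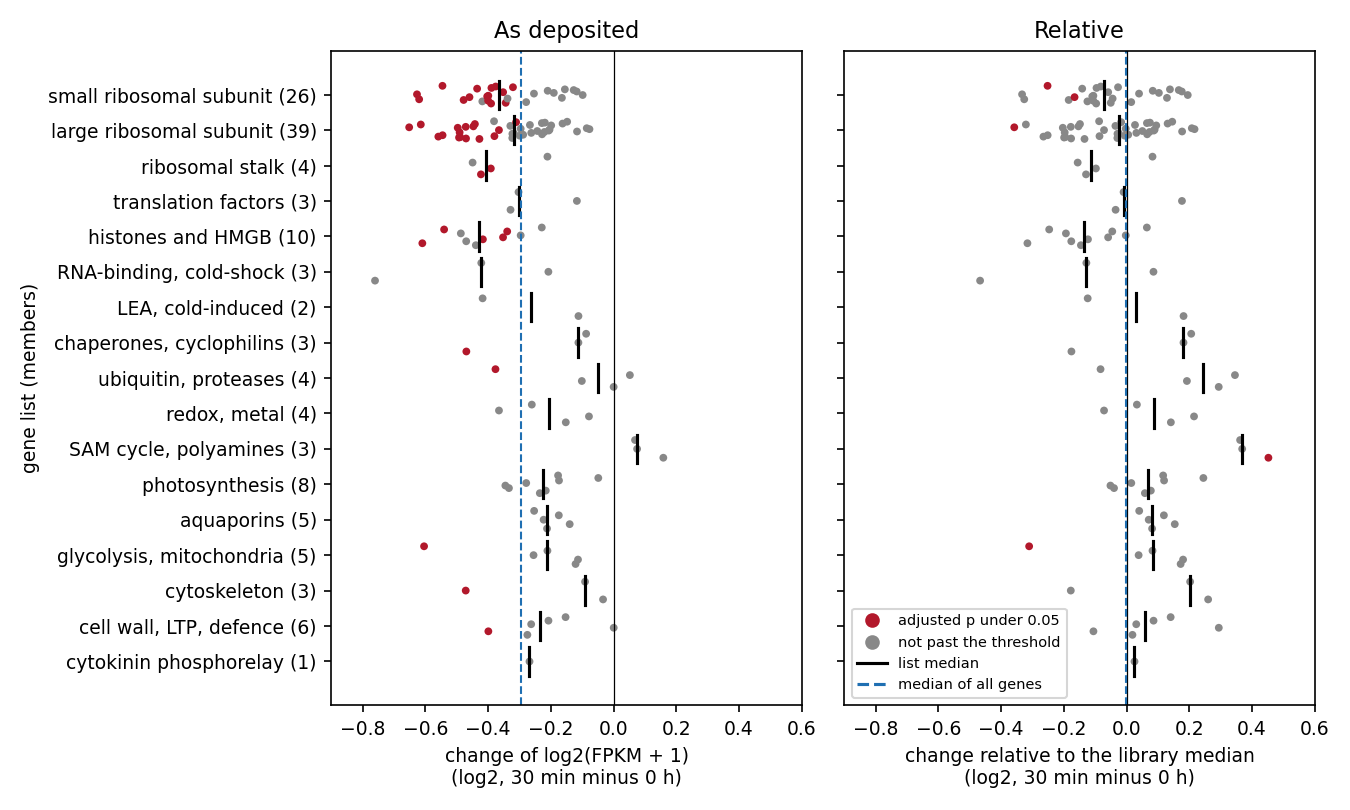
Change at 30 min against 0 h of the 129 genes in a list (points), by gene list with the number of members in brackets. Values are on the log2 scale, as deposited (left) and relative to the library median (right). The 14 genes of no list are not shown. Red points passed the limma threshold, grey points did not, black ticks are list medians and dashed lines the medians of all 143 genes, at -0.30 on the left and 0.00 on the right. The point furthest to the left is GRP1A of the RNA-binding list (-0.76 as deposited), and the S-adenosylmethionine (SAM) cycle list has the highest median in both panels.

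Histones, which package DNA, and the high mobility group B proteins that bind it had a median change of -0.43, against -0.30 for all genes, and 5 of the 10 genes fell, beside 33.6% of all genes. Histone H1.2, a linker histone (PaF106G0600025645.01, chromosome 6, 28846365 to 28847196), had 555, 602 and 653 FPKM at 30 min, against 1133, 722 and 822 FPKM at 0 h. The highest 30 min library was below the lowest 0 h library. It averaged 604 ± 49.3 FPKM at 30 min and 892 ± 214 FPKM at 0 h, a change of -0.54 (SE 0.14, adjusted p = 0.0131). A gene for the core histone H4 (PaF106G0600024535.01, chromosome 6, 23183579 to 23184037) had 622, 828 and 819 FPKM at 30 min and 1622, 944 and 982 FPKM at 0 h. Its groups did not overlap, and its change was -0.61 (SE 0.20, adjusted p = 0.0243). The core histone H3.2 changed by -0.44 without passing (adjusted p = 0.0644). The other two genes for H4 changed by -0.49 and -0.47 and did not pass either (adjusted p of 0.0708 and 0.0817). The probable histone H2A.1 fell by 0.42, and both high mobility group B protein 2 genes, which stand next to each other on chromosome 7, fell by 0.35 and 0.34 on the log2 scale. Histone H3.3, the variant laid down outside DNA replication, changed by -0.30, and the H2A gene on chromosome 6 by -0.23, and neither passed.

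The largest falls that passed were those of a pair of genes without a Swiss-Prot name. PaF106G0200010000.01 (chromosome 2, 23625600 to 23626219) had 1187, 2488 and 2451 FPKM at 30 min, against 4515, 3056 and 2995 FPKM at 0 h, and changed by -0.84 (SE 0.21, adjusted p = 0.0112). The libraries numbered 1 were the lowest at 30 min and the highest at 0 h, and without both of them the change was -0.29. PaF106G0300011718.01 (chromosome 3, 20180611 to 20181082) was the most abundant gene at 0 h. It had 1985, 3071 and 3396 FPKM at 30 min and 4612, 3394 and 5919 FPKM at 0 h, so that its groups overlapped by a single pair of nearly equal values (change -0.72, SE 0.21, adjusted p = 0.0174). The 6 kDa subunit of the mitochondrial ATP synthase (PaF106G0600022340.01, chromosome 6, 5371643 to 5373467) had the lowest p of the comparison. Its values were 620, 700 and 674 FPKM at 30 min, against 1290, 822 and 971 FPKM at 0 h. Each 30 min library was below each 0 h library, and the 30 min libraries differed little, at 665 ± 40.5 FPKM compared with 1028 ± 239 FPKM at 0 h (SD, n = 3 each). The change was -0.60 (SE 0.13, adjusted p = 0.00692). The other 4 genes of the glycolysis and mitochondria list, namely the cytosolic GAPC2, malate dehydrogenase, enolase and aldolase, changed by -0.11 to -0.26, and none passed. The list thus had 1 of 5 genes called, beside 33.6% of all genes.

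**Figure D3:**
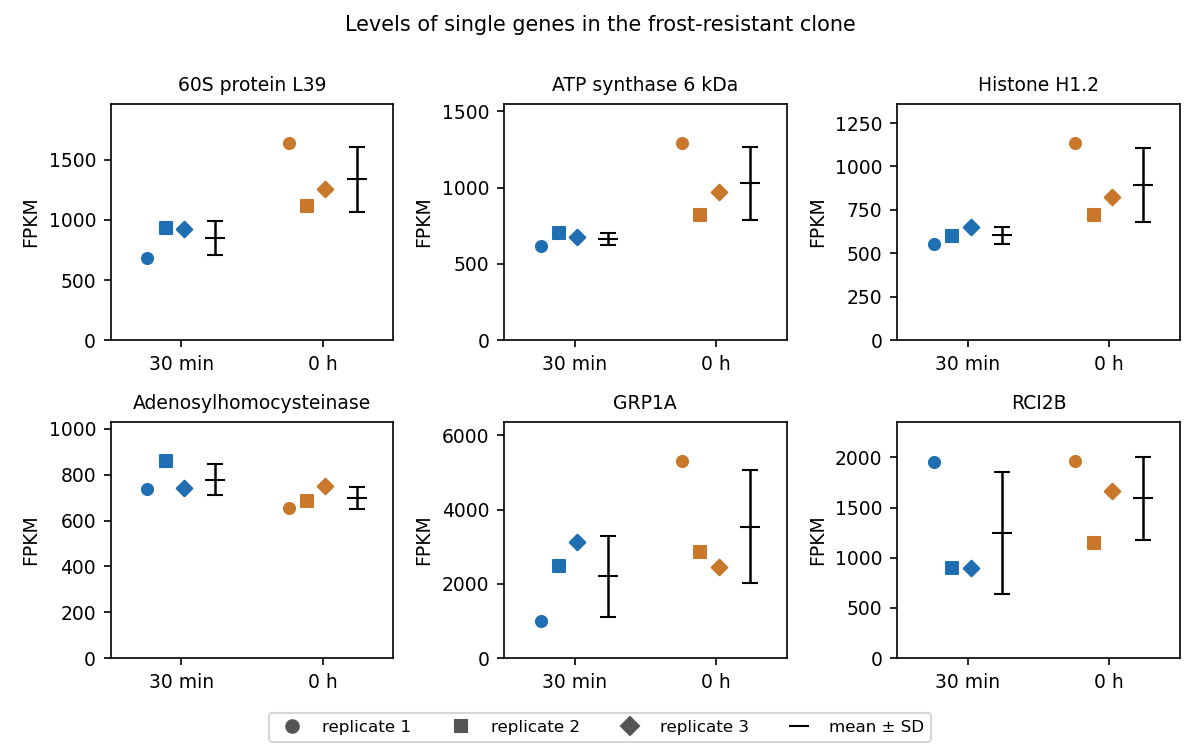
FPKM in each library of the frost-resistant clone for 6 genes, with 30 min in blue on the left and 0 h in orange on the right of each panel. Marker shapes are replicates, and bars show the mean ± SD (n = 3). For L39, the ATP synthase 6 kDa subunit and histone H1.2 the groups do not overlap, while for adenosylhomocysteinase, GRP1A and RCI2B they do, and replicate 1 at 30 min stands apart for GRP1A and RCI2B.

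None of the 3 RNA-binding and cold-shock genes or the 2 LEA and cold-induced genes was called in either direction. Over all genes 33.6% were called lower. GRP1A, a glycine-rich RNA-binding protein whose relatives in Arabidopsis respond to cold and to the circadian clock (PaF106G0800031435.01), had 993, 2480 and 3129 FPKM at 30 min and 5301, 2871 and 2464 FPKM at 0 h. The groups overlapped, and the libraries numbered 1 were the extremes on either side. Its change of -0.76 had a standard error of 0.37 and an adjusted p of 0.0962, and without both of those libraries the change was 0.07. The cold-shock domain type glycine-rich protein 2 changed by -0.21 (SE 0.21), and the mitochondrial glycine-rich RNA-binding protein 2 by -0.42 (SE 0.19, adjusted p = 0.0856). RCI2B, a small membrane protein of a family induced by cold in Arabidopsis (PaF106G0600025152.01), had 1951, 901 and 893 FPKM at 30 min, against 1960, 1145 and 1668 FPKM at 0 h. Replicate 1 at 30 min was far above its fellow libraries, and the groups overlapped (change -0.42, SE 0.26, adjusted p = 0.168). ARG2, an auxin-induced protein of the LEA type, had 949, 1155 and 783 FPKM at 30 min and 1214, 753 and 1187 FPKM at 0 h. Its groups lay over each other, with a change of -0.11 (SE 0.40).

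Chaperones and proteins of protein turnover did not move as a group. Of the 3 chaperones and cyclophilins and of the 4 ubiquitin and protease genes, 1 each fell, beside 33.6% of all genes. The most abundant of them, a cyclophilin that catalyses the folding step at proline bonds (PaF106G0800030663.01, chromosome 8, 17097538 to 17098356), had 2631, 3165 and 3072 FPKM at 30 min and 5224, 3376 and 3852 FPKM at 0 h. All 30 min libraries were below all 0 h libraries, and it fell by 0.47 on the log2 scale (SE 0.15, adjusted p = 0.0236). HSP90-2 and the heat shock cognate 70 kDa protein, the ATP-driven chaperones of the cytosol, changed by -0.09 and -0.11, and neither passed. Ubiquitin-like protein 5, known in yeast and animals for its part in splicing, fell by 0.38 (SE 0.12, adjusted p = 0.0239), with 621, 735 and 767 FPKM at 30 min, against 1067, 767 and 939 FPKM at 0 h. The highest 30 min library stood level with the lowest 0 h library. Polyubiquitin and the proteases AED3 and RD19A had changes of -0.10, 0.00 and 0.05.

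Of the remaining lists, SPIRAL1-like 1, which binds microtubules, fell by 0.47 (SE 0.15, adjusted p = 0.0239) and the arabinogalactan protein 31 of the cell wall by 0.40 (SE 0.13, adjusted p = 0.0239). SPIRAL1-like 1 had 901, 1078 and 1099 FPKM at 30 min and 1721, 1179 and 1403 FPKM at 0 h, and the arabinogalactan protein 957, 945 and 925 FPKM at 30 min and 1587, 1131 and 1069 FPKM at 0 h. In neither did the groups overlap. None of the 8 photosynthesis genes passed (median change -0.23), nor did any of the 5 aquaporins, the water channels of the plasma membrane and vacuole (median -0.21), the 4 redox and metal genes (median -0.21) or the histidine-containing phosphotransfer protein of cytokinin signalling (-0.27). Over all genes 33.6% were called lower, with a median change of -0.30. The highest change of any gene was that of adenosylhomocysteinase, at 0.16 without passing (adjusted p = 0.200), followed by the putative protein ART3 at 0.14, a pair of S-adenosylmethionine decarboxylase genes at 0.07 each and RD19A at 0.05. ART3 was among the most variable, with 600, 425 and 903 FPKM at 30 min and 584, 625 and 471 FPKM at 0 h.

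With the libraries set to a common median, 5 genes passed (3.50% of those tested), 1 higher (0.699%) and 4 lower (2.80%). Adenosylhomocysteinase, which clears the by-product of methylation reactions in the S-adenosylmethionine cycle (PaF106G0100001906.01, chromosome 1, 12656257 to 12658231), was the one that rose. It had 738, 859 and 742 FPKM at 30 min and 657, 685 and 751 FPKM at 0 h, which overlap. As a ratio to the library median it was 0.864, 0.941 and 0.821 at 30 min, against 0.511, 0.719 and 0.709 at 0 h, so that all 30 min libraries were above all 0 h libraries and replicate 1 at 0 h was the lowest. The relative change was 0.45 (SE 0.11, limma adjusted p = 0.0257). The S-adenosylmethionine decarboxylase genes, which act at the entry to polyamine synthesis, had relative changes of 0.37 and 0.36 (adjusted p of 0.189 and 0.0506). In all 3 genes of this list the ratios of the groups did not overlap, which was so for 10.5% of all genes in this direction. The 3 genes are long, at 1548, 1782 and 1944 bases. Of the 48 longest genes 41 had a relative change above 0, against 10 of the 48 shortest.

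The genes that fell relative to the median were L39 by 0.36 (adjusted p = 0.0257), the ATP synthase 6 kDa subunit by 0.31 (adjusted p = 0.0366), S30 on chromosome 7 by 0.25 (adjusted p = 0.0366) and S19-1 by 0.17 (adjusted p = 0.0366). As a ratio to the median, L39 was 0.802, 1.02 and 1.03 at 30 min, against 1.27, 1.17 and 1.19 at 0 h, and S19-1 was 1.04, 1.08 and 1.02 at 30 min, against 1.25, 1.12 and 1.16 at 0 h. Both were without overlap, as were 16.1% of all genes in this direction. Across the lists, the median relative change was -0.07 for the small subunit, -0.02 for the large subunit, -0.13 for histones and chromatin proteins, 0.07 for photosynthesis and 0.37 for the S-adenosylmethionine cycle, against 0.00 for all genes. No gene passed without replicate 1 at 0 h (20 at an unadjusted p under 0.05), without replicate 1 at 30 min (33), or with the compared groups alone (14), while 1 passed without replicate 3 at 0 h, 8 without replicate 2 at 0 h, and 12 (1 higher, 11 lower) when libraries were centred on the genes outside the ribosomal lists. Without replicate 1 at 0 h, the relative changes of adenosylhomocysteinase and L39 were 0.29 and -0.32.

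Gene length went with the change. Short genes had lower changes than long ones, with a Spearman rho of 0.66 between deposited gene length and change across the 143 genes (0.55 within the 69 ribosomal proteins and 0.66 within the other 74). Genes share the same 6 libraries and are not independent replicates, so this is a description. Of the 48 shortest genes (345 to 716 bases) 26 fell, of the 47 in the middle (717 to 1081 bases) 19 fell, and of the 48 longest (1109 to 2480 bases) 3 fell, with median changes of -0.42, -0.32 and -0.20. The genes that fell had a median length of 685.5 bases, compared with 1040 bases for those not called. The relation remained at a rho of 0.62 without replicate 1 at 0 h and 0.58 without both libraries numbered 1. In NC it had the opposite sign, at -0.47 for the change over the same 30 min. By library, the rho of gene length with the deviation from the mean of all 30 libraries was -0.20, -0.19 and -0.34 in CR at 30 min, against -0.67, -0.54 and -0.66 in CR at 0 h. The part of gene length, or of anything in the libraries that moves with it, in the results was not tested.

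**Figure D4:**
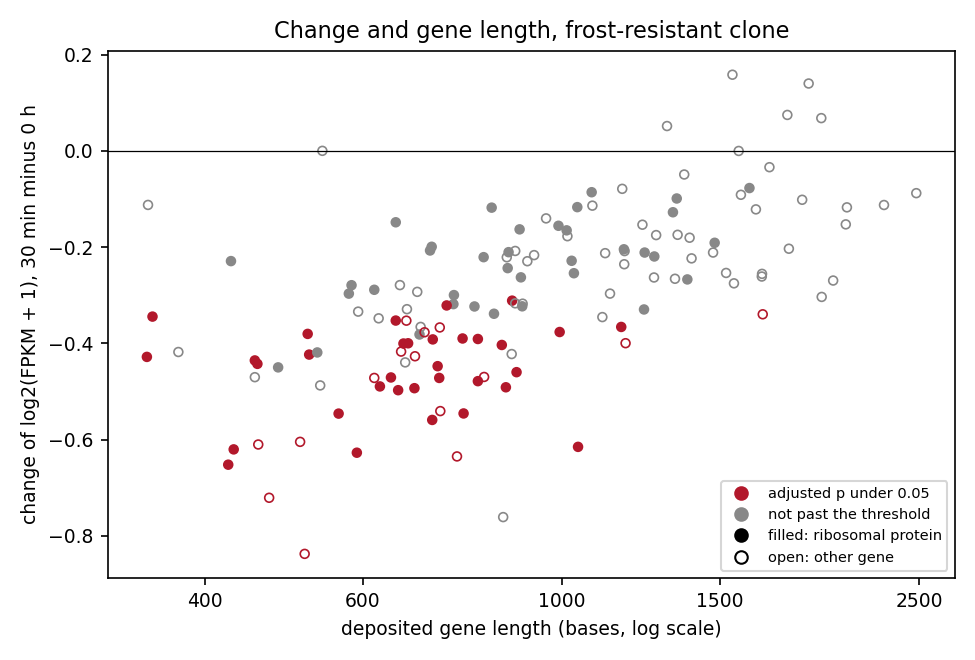
Change of log2(FPKM + 1) at 30 min against 0 h in the frost-resistant clone plotted by deposited gene length on a log scale, 1 point per gene. Red points passed the limma threshold, filled points are ribosomal proteins, and the falls lie mainly among the shorter genes, with 26 of the 48 shortest and 3 of the 48 longest called lower.

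Across the whole treatment the 30 min level of CR was close to that at 15 min and lower than those at the start and end. From the start through 15 min, 30 min, 1 h and 2 h, the library medians averaged 1099 ± 169, 848 ± 48.5, 890.0 ± 31.7, 931 ± 39.6 and 1014 ± 54.0 FPKM (SD, n = 3 each). L39 averaged 1337 ± 269, 792 ± 49.5, 848 ± 141, 1035 ± 133 and 1271 ± 86.9 FPKM over the same times, and the ATP synthase subunit 1028 ± 239, 634 ± 99.97, 665 ± 40.5, 724 ± 56.5 and 843 ± 27.4 FPKM. In both genes 15 min and 30 min differed by less than the larger of their SDs, with 30 min below 2 h. Adenosylhomocysteinase ran the other way at first, with 698 ± 48.3, 844 ± 23.8, 779.6 ± 68.6, 763 ± 70.0 and 751 ± 36.5 FPKM. ARG2 averaged 1051 ± 259, 840.1 ± 121, 962 ± 186, 1180 ± 197 and 1512 ± 78.7 FPKM.

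Tested directly, 0 genes differed between 30 min and 15 min in CR (0.0% of 143, limma, and 3 at an unadjusted p under 0.05), and the test with voom weights also gave 0. The median change was 0.06. After centring, 2 genes passed (1.40%), 1 in each direction (0.699% each). The elongation factor 1-alpha gene on chromosome 1 (PaF106G0100000142.01, 874033 to 877141) had 976, 710 and 738 FPKM at 30 min, against 560, 524 and 432 FPKM at 15 min. All 30 min libraries were higher, and the relative change was 0.60 (SE 0.13, adjusted p = 0.0131), with 0.67 before centring (95% confidence interval 0.32 to 1.02, adjusted p = 0.0699). L28-1, of the large subunit, had 1334, 1441 and 1389 FPKM at 30 min and 1661, 1442 and 1611 FPKM at 15 min, a relative change of -0.25 (SE 0.05, adjusted p = 0.0131) and -0.18 before centring. Replicate 2 at 15 min was level with the highest 30 min library. Neither gene passed with the compared groups alone or without replicate 3 at 15 min, and 3, 4 and 1 genes passed without replicates 1, 2 and 3 at 30 min. Before centring, 0 genes passed without replicate 1 at 30 min (9 at an unadjusted p under 0.05).

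The change over 30 min was then set against that of the frost-sensitive clone NC, in a test of the difference between the clones. In NC the library medians averaged 759 ± 40.6 FPKM at 30 min and 763 ± 38.8 FPKM at 0 h, a shift of -0.01 on the log2 scale, so that the clones differed by -0.29 in the shift of all genes. Before centring, 13 genes differed (9.09% of those tested, limma), 1 higher and 12 lower in CR (0.699% and 8.39%). After centring 27 differed (18.9%), 17 higher and 10 lower (11.9% and 6.99%), and all 10 of the lower genes were also among the 12. Before centring, 0 genes passed without replicate 1 of CR at either time, 1 and 2 without replicates 2 and 3 of NC at 0 h, 5 without replicate 3 of NC at 30 min, 2 with the compared groups alone and 60 without replicate 2 of CR at 0 h. After centring, 12 genes passed without replicate 3 of NC at 30 min, 16 without replicate 1 of CR at 0 h or replicate 2 of NC at 0 h, 26 without replicate 1 of CR at 30 min, 6 with the compared groups alone, and 15 (12 higher, 3 lower) without both CR libraries numbered 1.

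**Figure D5:**
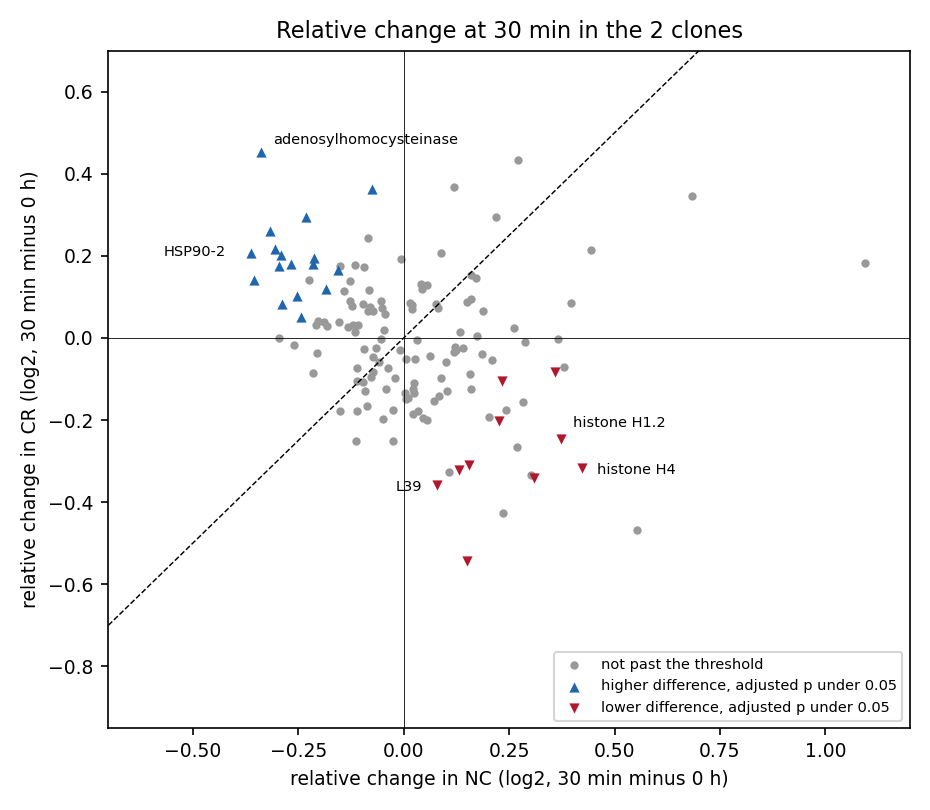
Relative change at 30 min against 0 h of each of the 143 genes in the frost-resistant clone CR (vertical axis) and the frost-sensitive clone NC (horizontal axis), on the log2 scale. Blue upward triangles are the 17 genes whose change was higher in CR than in NC, red downward triangles the 10 whose change was lower, and the dashed line marks equal changes. Called genes lie mostly in the upper left and lower right, where the clones changed in opposite directions.

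Adenosylhomocysteinase had the highest difference. CR had 738, 859 and 742 FPKM at 30 min against 657, 685 and 751 FPKM at 0 h, while NC had 959.6, 950.2 and 759 FPKM at 30 min against 1202, 1120 and 1056 FPKM at 0 h. In NC all 30 min libraries were below all 0 h libraries. The change in CR minus that in NC was 0.50 (SE 0.15, adjusted p = 0.0342), and 0.79 after centring (SE 0.15, adjusted p = 0.00220). The S-adenosylmethionine decarboxylase gene on chromosome 1 also differed after centring, by 0.44 (adjusted p = 0.0439). Of the cytoskeleton and of the chaperone and cyclophilin genes, 2 of 3 each were called on the same side after centring, beside 11.9% of all genes. These were the tubulin alpha chain at 0.58 (SE 0.14, adjusted p = 0.0105), tubulin beta-1 at 0.49, HSP90-2 at 0.57 (SE 0.12, adjusted p = 0.00326) and the heat shock cognate 70 kDa protein at 0.45. The remaining member of each list, SPIRAL1-like 1 at -0.21 (adjusted p = 0.128) and the cyclophilin at -0.15 (adjusted p = 0.445), had a value below 0 and did not pass. HSP90-2 had 534, 736 and 648 FPKM at 30 min against 764, 641 and 625 FPKM at 0 h in CR, where the groups overlapped, and 583, 598 and 461 FPKM at 30 min against 745, 692 and 673 FPKM at 0 h in NC, where they did not. The protease AED3 (0.52), L3 (0.52), polyphenol oxidase (0.50) and the elongation factor 1-alpha gene on chromosome 6 (0.47) also differed in that direction. Of the 17 higher genes 6 were ribosomal proteins, beside 69 of the 143 genes tested.

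Of the 10 histone and chromatin genes, 2 passed with a lower change in CR before and after centring, beside 8.39% and 6.99% of all genes. The other 8 did not pass. Histone H1.2 had 819, 742 and 814 FPKM at 30 min against 696, 594 and 559.8 FPKM at 0 h in NC, where it was higher at 30 min in all libraries, and lower in all in CR. The difference between the clones was -0.90 (SE 0.20, adjusted p = 0.0112), and -0.62 after centring (SE 0.11, adjusted p = 0.00220). Histone H4 on chromosome 6 had 1240, 1211 and 1093 FPKM at 30 min against 1003, 840 and 821 FPKM at 0 h in NC, a difference of -1.03 (SE 0.28, adjusted p = 0.0268), and -0.74 after centring (SE 0.18, adjusted p = 0.0105). The differences of TMA7 (-0.94), the ATP synthase subunit (-0.75), L31 (-0.74), ubiquitin-like protein 5 (-0.73), L39 (-0.72), L38 (-0.72) and S21-2 (-0.62) passed before and after centring. Thioredoxin H-type, a carrier of reducing power, differed by -0.74 before centring (adjusted p = 0.0342) and did not pass after it. Ribosomal proteins were 4 of the 12 lower genes before centring and 4 of the 10 after it, beside 69 of the 143 genes tested.

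The clone differences also went with gene length. The median length was 1573 bases for the 17 genes that were higher in CR after centring and 665.5 bases for the 10 that were lower, and the rho of length with the difference was 0.66 across all 143 genes. By library, the rho of gene length with the deviation from the mean of all libraries was 0.35, 0.45 and 0.01 in NC at 30 min, and 0.59, 0.64 and 0.63 in NC at 0 h, whereas all 6 CR libraries had values below 0. Its part in the clone differences was not tested.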

How the data were processed

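RNA sequencing of 30 libraries gave the gene table. Per the submitters' processing notes HISAT2, Picard, SAMtools 0.1.18 and GATK were used, with no role stated. No counter, annotation or genome build is named in the labels or the file header, and coordinates are those of the table. Values are FPKM that the authors deposited. Multiplied by gene length, 4290 of 4290 values were whole multiples of a step (tolerance 1e-06), which gave the reads behind them. The library sizes that these steps gave were not whole numbers, and how they were set is not stated. The table used held 143 complete genes, and 1 incomplete last entry was left out. Of these, 27 genes shared a name with another.

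A model of 10 group means was fitted to log2(FPKM + 1) of all 30 libraries with limma 3.58.1 in R 4.3.3, with a mean-variance trend and 28.1 moderated degrees of freedom, after testing on simulated data. Requiring 1 FPKM or more in at least 3 libraries removed 0 genes. Tests were two-sided, with Benjamini-Hochberg adjustment over all genes and a threshold of 0.05. Alternatives were a pseudocount of 10, no filter, no trend, the compared groups alone, a replicate block, voom weights on the recovered reads, other centrings and leaving out each library. Named genes were the 10 lowest called changes, the 5 highest changes, genes called relative to the median, up to 5 called genes a direction between clones or times, and the extreme members of each list, with all members of lists of 5 or fewer. Members outside this rule are named as examples chosen after their values were seen. Not every gene that the rule picked is given singly, and the aquaporins, for example, appear by list median alone. The comparison, the 17 lists and their members were chosen with earlier results of these data known. No sequences were used.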

Additional observations from a re-analysis of the deposited data

Results flagged for a closer look

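A difference between the clones in the change over 30 min, tested as an interaction, marked several genes for a closer look. Before centring, the change in CR minus the change in NC was -1.03 for histone H4, -0.98 and -0.95 for PaF106G0200010000.01 and PaF106G0300011718.01, -0.94 for TMA7, -0.90 for histone H1.2, -0.75 for the ATP synthase 6 kDa subunit and 0.50 for adenosylhomocysteinase (log2, limma adjusted p of 0.0112 to 0.0426). After centring on the library median it was -0.74 for histone H4, -0.69 for PaF106G0200010000.01, -0.65 for TMA7, -0.62 for histone H1.2, -0.47 for the ATP synthase subunit, 0.79 for adenosylhomocysteinase, 0.58 for the tubulin alpha chain, 0.57 for HSP90-2, and 0.52 each for AED3 and L3 (adjusted p of 0.00220 to 0.0439).

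Adenosylhomocysteinase, HSP90-2, histones H1.2 and H4 and the ribosomal protein L38 passed after centring in all 20 alternatives that left out at most 1 library. Without both CR libraries numbered 1, an alternative added after seeing the data, adenosylhomocysteinase (0.64, adjusted p = 0.00793), HSP90-2 (0.63, adjusted p = 0.00534) and histone H1.2 (-0.52, adjusted p = 0.0117) passed, and histone H4 (-0.50, adjusted p = 0.0745) did not. L38 passed there as well, so that 4 of the 27 genes called passed in all 21 alternatives. The lower genes were short and the higher ones long, as described above.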

How the results depend on the processing

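Of the 48 falls, all kept their direction in 13 settings, 10 passed in every one of the 6 settings that left out no library, and 0 passed in all 13. The 5 relative calls kept their direction in 15 settings, and 0 passed in all. With the compared groups alone the counts were 11 for 30 min against 0 h, 0 relative, 2 and 6 for the clone difference before and after centring, and 0 for 30 min against 15 min relative. Centring on genes outside the ribosomal lists gave 12 relative calls and 1 between 30 min and 15 min. Leaving out 1 library gave 0 to 95 calls, 0 to 8 relative, 0 to 60 and 12 to 35 for the clone difference before and after centring, 0 to 0 and 0 to 4 for 30 min against 15 min, and library median differences of -282 to -116 FPKM. Leaving out replicate 1 of CR at 0 h and at 30 min together, chosen after seeing the data, gave 0 calls, 0 relative, and 0 and 15 for the clone difference.

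Whether replicate numbers pair the samples is not in the labels, and 3 libraries a group cannot settle it. Deviations of same-numbered 30 min and 0 h libraries of CR correlated at -0.20, 0.10 and -0.41. Those of NC correlated at 0.27, -0.25 and 0.57, and those of CR at 30 min and 15 min at -0.16, -0.57 and 0.76. Blocking on the replicate number gave counts of 52, 3 relative (1 higher, 2 lower), 11 and 23 for the clone difference, and 1 and 2 for 30 min against 15 min. With 3 libraries a group, the spread between libraries and not sequencing depth limits what can be called. The cause of these dependences was not tested.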
